A study of Mus musculus with 5 samples.

Results

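The circular RNAs described here come from genes of the centrosome, the coiled-coil domain proteins, the kinesin motors, intraflagellar transport and the NIMA-related kinases. They were taken by name from the circRNA table of mouse testis: every circRNA whose host gene symbol starts with Cep, Ccdc, Kif, Ift or Nek and goes on with a digit, with Cep83 left out. This gave 419 of the 11957 circRNAs listed, from 92 host genes. By prefix there were 125 circRNAs from 19 Cep genes, 176 from 47 Ccdc genes, 44 from 16 Kif genes, 34 from 6 Ift genes and 40 from 4 Nek genes. The rule itself used names only, though it was set with earlier results of these data known. A prefix is not a function: Kif1bp encodes a kinesin-binding protein and no motor, and Ccdc simply records a predicted coiled coil. Ccdc50 and Ccdc132 are known from ubiquitin signalling and endosomal recycling.

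Testis RNA came from male C57BL/6J mice aged 10 weeks. Triptolide, a diterpenoid of the thunder god vine, was given by gavage at a daily dose of 50 µg per kg, controls were given saline, and testes were collected after 35 days. The labels give 6 mice per group, and 2 control and 3 triptolide libraries of ribosome-depleted, strand-specific RNA were read. Whether each library stands for 1 animal or for pooled animals is not stated, and the p-values therefore measure no more than the spread between these libraries, which may be technical. The 3 triptolide columns of the circRNA table share 1 header and are called A, B and C.

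A circRNA forms when the spliceosome joins the end of an exon backwards to the start of the same or an earlier exon, so 1 gene can give many circles that share an end. Centrosomes organise microtubules around a pair of centrioles, and in round spermatids the distal centriole becomes the basal body from which the sperm tail grows. Intraflagellar transport carries tail and cilium parts along microtubules with a kinesin motor outward and a dynein motor back, NIMA-related kinases regulate centrosomes, cilia and the DNA damage response, and several Ccdc proteins are built into the axoneme of the tail.

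The promoters of the host genes are shown first, because genes of cilia and centrosomes are known targets of RFX factors, which bind the X-box. In the RefSeq promoter windows (GRCm38.p6, 250 bases before to 50 after each gene start), 74 of the 92 hosts were found, 7 of them under a newer symbol. A relaxed X-box, the letters GTNNCC and GGNAAC with 2 free bases between them, read on both strands, stood in the windows of 7 hosts (9.46%): Ccdc13, Ccdc151, Ccdc67 (now Deup1), Cep112, Kif18a, Kif23 and Kif9. They stood in 2.98% of the 2787 windows of circRNA hosts and in 1.49% of all 27025 windows. A stricter form, with GTTNCC in front, was in 1 member window (1.35%), against 0.789% of circRNA hosts. The half-site GTTGCC, which overlaps some of these matches, was in 20 member windows (27%), against 17.3% of circRNA hosts and 14.1% of all windows. The palindrome TGACGTCA of CREM and CREB factors was in 3 member windows (4.05%), against 3.73% of circRNA hosts. In all 17 motifs were searched in this way, 9 of them overlapping variants of the X-box, so these shares are a description and no site was measured. The match in capitals is shown for Cep112, which gave the most circles, the sperm tail kinesin Kif9, and Ccdc151, an axonemal docking protein. The flanking bases shown stop at the gene start for Kif9 and Ccdc151 and short of it for Cep112. The Kif9 match fits the relaxed form only when read on the opposite strand. Relative to another listed Kif9 start, the same match lies after the start.
Cep112, chr11:108425122-108425255, plus strand: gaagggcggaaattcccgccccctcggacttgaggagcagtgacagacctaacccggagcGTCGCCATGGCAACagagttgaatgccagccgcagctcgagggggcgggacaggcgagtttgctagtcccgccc
Kif9, chr9:110476907-110476993, plus strand: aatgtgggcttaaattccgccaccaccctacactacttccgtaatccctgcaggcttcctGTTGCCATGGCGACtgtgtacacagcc
Ccdc151, chr9:22002635-22002728, minus strand: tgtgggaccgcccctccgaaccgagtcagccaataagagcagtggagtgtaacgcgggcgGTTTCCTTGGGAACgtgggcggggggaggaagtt

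Abundance is given in SRPBM, reads across the back-splice junction relative to all mapped reads, which the authors had rounded. One junction read was worth 8.26 to 9.54 SRPBM, the smallest value listed was 2 reads, and the libraries held 32818 to 44335 junction reads in all. Control 1 stood apart in what it listed at 0. Of 34 member circRNAs with at least 5 reads in each of the other 4 libraries, 6 were at 0 in control 1 (17.6%), among them the most abundant circles of Ccdc176 and Nek1, and the same held for 142 of 896 circRNAs of the whole table (15.8%). In the other libraries this share was 1.5% to 2.66% over the whole table. The sources used here do not give the meaning of a 0, so results below that rest on control 1 are given with and without it. The tissue label was set against marker genes. Circles came from 6 of 7 meiotic marker genes and 2 of 9 spermatid marker genes (Crem and Prm2), and from no marker of Sertoli cells, Leydig cells, muscle, blood, endothelium, epididymis or fat. Of 5 spermatogonial genes only Zbtb16 gave a circle, and of 3 immune genes only Adgre1. Long non-coding RNA loci stood at 3 meiotic, 1 spermatid, 1 Leydig, 1 muscle, 2 endothelial and 2 fat marker genes. A marker without a circle therefore does not show that its cells were absent.

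Member genes gave more circles each than other hosts. There were 4.55 circRNAs per member host, against 2.94 for the 3382 other host genes. Nek genes gave 10.0 per host, Cep genes 6.58, Ift genes 5.67, Ccdc genes 3.74 and Kif genes 2.75. The numbers were uneven: 32 member hosts gave 1 circle each, whereas Cep112 gave 33, Ccdc178 on chromosome 18 gave 25, Nek10 gave 21, Cep128 gave 19, Ccdc171 gave 18 and Cep63 gave 16. Most circles were rare. Of the 419, 234 (55.8%) were listed in 1 library alone and 50 (11.9%) in all 5, close to the 53.0% and 12.6% of the other circRNAs with a host.

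**Figure D1:**
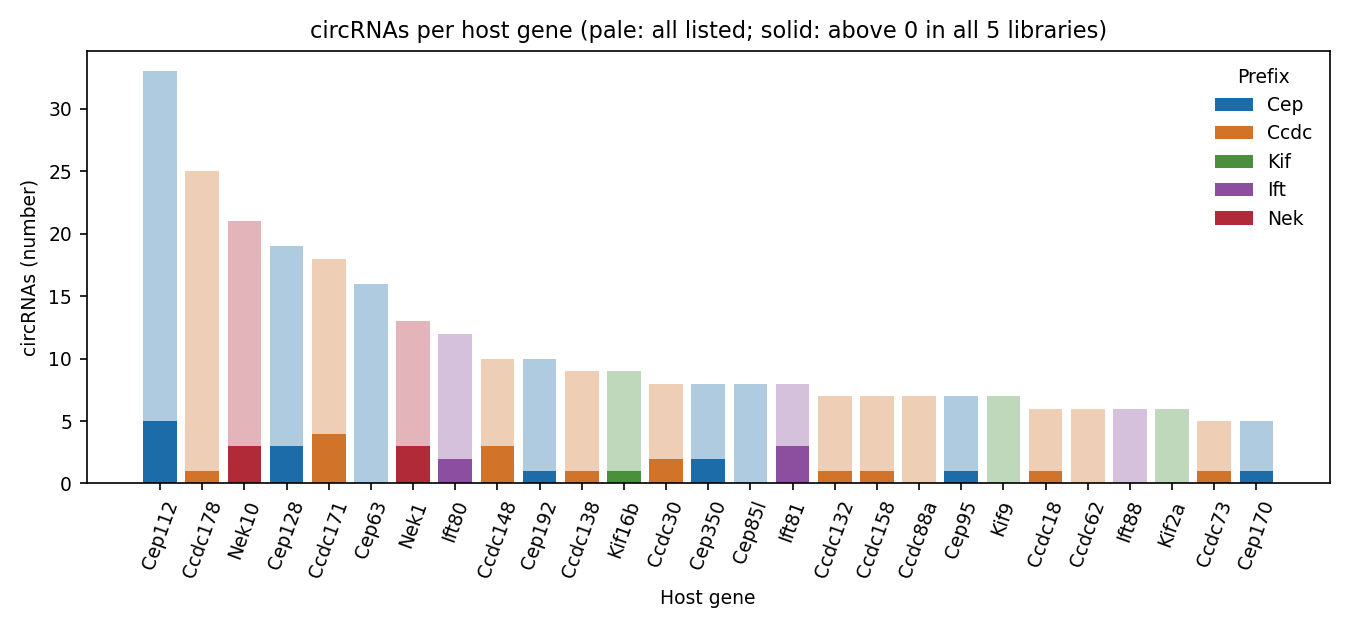
Number of circRNAs (y axis) of each host gene with at least 5 (x axis), coloured by prefix. Pale bars are all listed circRNAs and solid bars those above 0 in all 5 libraries: Cep112 gave 33, of which 5 were in every library, and Cep63 gave 16, of which none was.

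The circles spanned 230 to 251589 bases of the genome, introns included, with a median of 17204 against 15438 for other circles with a host. Nek circles were the longest by median, at 30275 bases, and Kif circles the shortest, at 14085. Of the 419, 62 (14.8%) spanned more than 50000 bases. Sharing was common: 326 (77.8%) had an end in common with another circle of the same host, against 67.9% of other circles. The share was 92.5% for Nek, 85.6% for Cep, 85.3% for Ift, 72.7% for Ccdc and 56.8% for Kif, the same order as for circles per host.

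Single splice sites were reused many times. In Cep112 (chromosome 11), 11 circles began at position 108434126, spanning 3270 to 230600 bases, and 7 ended at 108531465. In Nek10 (chromosome 14), 10 circles shared the lower end 14820778. Summed, those 10 held 262 and 239 SRPBM in control 1 and 2 and 245, 299 and 312 in triptolide A, B and C, with the groups overlapping. In Ift80 (chromosome 3), 7 circles shared the upper end 68994582. Their sum of 280 and 189 SRPBM in the controls lay above the 66, 123 and 155 of triptolide. This end was named after its values were seen, and the share of ends without overlap was not computed. The groups overlapped at the other ends shared by 7 circles. The Cep112 end 108531465, for example, held 552 and 561 against 887, 458 and 424. Positions are printed as the deposited file gives them.

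**Figure D2:**
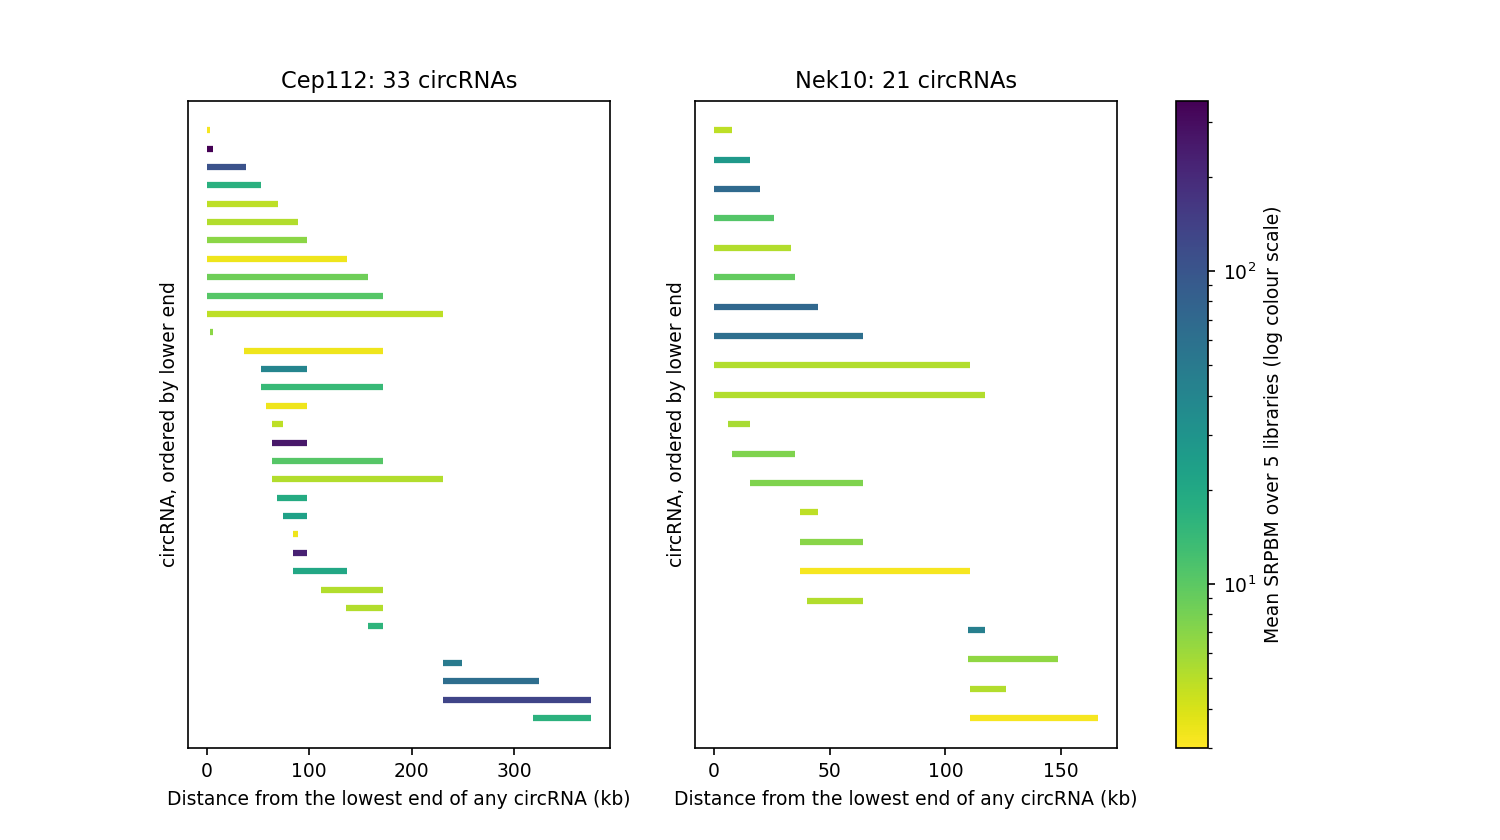
Extent of the 33 circRNAs of Cep112 (left) and the 21 of Nek10 (right) in kb from the lowest end of any circle (x axis), 1 line per circle, coloured by mean SRPBM over the 5 libraries on a log scale. In Cep112, 11 lines start at the same left end, and in Nek10, 10 do.

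The member circles were of low to middling abundance. Together they held 7687 and 9837 SRPBM in the controls and 9518, 10737 and 8109 in triptolide, which was 2.20% and 2.74% of all circRNA signal in the controls and 3.05%, 2.76% and 2.65% in triptolide. The 10 most abundant circles held 26.8% of the member signal and the 50 most abundant 59.1%. Only 15 circles had a mean above 100 SRPBM, 10 of them Cep and 5 Ccdc. Among circles present in all 5 libraries the median was 67.3 SRPBM for members, 111 for Cep and 74.9 for other hosts. The highest member mean was 344.6, against 9489 for the highest of the other circles.

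No member circRNA passed the test between triptolide and control, and the summed signal of no prefix reached a p under 0.05 in a design whose smallest possible p is 0.1. Of the 419, 185 were above 0 in at least 2 libraries and were tested: 101 had a positive log2 fold change and 84 a negative one. The median was 0.08 on the log2(SRPBM + 16) scale, against -0.06 over all 5457 circRNAs tested. Without control 1 the median was -0.19, against -0.19 over all circRNAs then tested. The filter leans to triptolide, since 22 of the 185 were above 0 in triptolide libraries alone and 4 in the controls alone, so these counts and medians support no shift. By prefix the medians were 0.03 for Cep, 0.11 for Ccdc, 0.07 for Kif, 0.09 for Ift and 0.31 for Nek. With limma and Benjamini-Hochberg adjustment over all circRNAs, 0 members were called and the smallest adjusted p was 0.68, and the background was also 0%. At an unadjusted p under 0.05 there was 1 member higher and 5 lower, against a background of 1.8% higher and 4.8% lower, or 6.6% in all. Those 6 were circles of Cep112 (higher), Ift80, Ift88, Kif1b, Ccdc148 and Ccdc178. Among the 50 members above 0 in every library 0 were called, against a background of 0.0712%. The edgeR quasi-likelihood test on recovered reads called 0 members as well, which does not show that the circles did not change, with 1 at an unadjusted p under 0.05 against a background of 2.25%. In bulk tissue, fewer cells of a type and less RNA per cell cannot be told apart. Summed circles of the 2 spermatid marker hosts were 975 and 1022 SRPBM in the controls and 523, 748 and 485 in triptolide, without overlap, and the other 7 spermatid markers gave no circle. The 6 meiotic marker hosts summed to 2326 and 2992 in the controls and 2310, 2413 and 2137 in triptolide. Their part in the results below was not tested.

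Groups without overlap were no more common than over all circRNAs tested. In 11 members all triptolide libraries lay above both controls, or 5.95% of those tested, against a background of 6.78%. In 12 members all triptolide libraries lay below both controls, or 6.49%, against 10.5%. Without control 2, 5 member circles passed the test, from Ccdc176, Cep112, Cep192, Cep63 and Nek1, against 2.85% of all circRNAs then tested. Each of these 5 genes had a circle listed at 0 in control 1 and well read elsewhere, and without control 1 none passed.

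**Figure D3:**
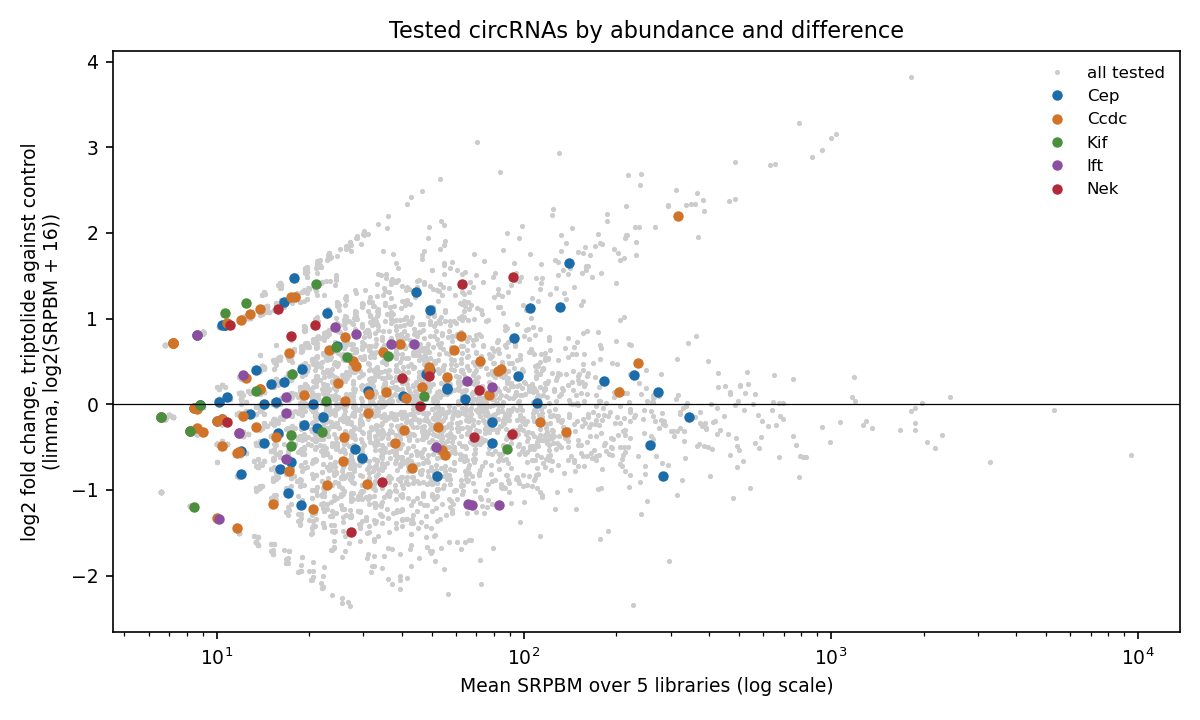
log2 fold change of triptolide against control from limma (y axis) by mean SRPBM over the 5 libraries (x axis, log scale) for the 5457 tested circRNAs in grey and the 185 tested members coloured by prefix. Members lie on both sides of 0, 101 above and 84 below, and none passed the adjusted threshold.

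Centrosomal hosts led the set. Summed over their circles, Cep genes held 3056 and 4171 SRPBM in the controls and 4165, 4300 and 3319 in triptolide. The groups overlapped, with a ratio of 1.09 (two-sided exact permutation p = 0.6, where the smallest p that 2 against 3 libraries allow is 0.1). Cep112, a coiled-coil protein of the centrosome, held 1034 and 1524 SRPBM in the controls and 1839, 1674 and 1150 in triptolide, which overlapped. Its most abundant circle, of 6470 bases (chromosome 11, 108434126 to 108440596), stood at 325 and 397 in the controls and 315, 451 and 235 in triptolide.

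One long Cep112 circle, of 144243 bases (chromosome 11, 108664496 to 108808739), had the smallest p of any member, and the only one under 0.05 among those that were higher. It stood at 79 and 58 SRPBM in the controls and at 133, 230 and 156 in triptolide, corresponding to 9 and 7 against 14, 26 and 18 reads. All triptolide libraries lay above both controls, with a log2 fold change of 1.14 ± 0.41 (SE, limma adjusted p = 0.68). A second Cep112 circle of 33221 bases (chromosome 11, 108498244 to 108531465) stood at 228 and 364 in the controls and at 401, 159 and 130 in triptolide. As a share of all Cep112 signal this second circle made up 22.1% and 23.9% in the controls and 21.8%, 9.5% and 11.3% in triptolide, so every triptolide share was below both controls, though triptolide A only just.

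Cep128, a protein of the centriole's subdistal appendages, gave 19 circles with a sum of 399 and 484 SRPBM in the controls and 523, 499 and 406 in triptolide. Cep350, a large centrosomal protein, had its leading circle (chromosome 1, 155953154 to 155962560) at 281 and 232 in the controls and 248, 336 and 269 in triptolide. These groups overlapped, and the limma log2 fold change of the Cep350 circle was 0.14 ± 0.31 (SE). Cep95 went the other way. Its leading circle (chromosome 11, 106790731 to 106806429) stood at 307 and 455 in the controls and at 105, 301 and 252 in triptolide, all below both controls, with a log2 fold change of -0.84 ± 0.47 (SE, limma adjusted p = 0.68).

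Cep63, which acts in centriole duplication, showed how far control 1 weighed. Its 16 circles summed to 17 SRPBM in control 1 but 394 in control 2, and to 256, 377 and 354 in triptolide. A circle of 949 bases (chromosome 9, 102618811 to 102619760) stood at 0 and 41 in the controls and 86, 44 and 52 in triptolide. Another, of 4485 bases (chromosome 9, 102615275 to 102619760), was listed at 0 in each control but at 28, 44 and 17 in triptolide, or 3, 5 and 2 reads (limma adjusted p = 0.68). Both had the same upper end on the genome. The log2 fold change of the 949-base circle was 1.31 in all 5 libraries and 0.39 without control 1.

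Coiled-coil hosts were the most numerous. Their circles summed to 2781 and 3560 SRPBM in the controls and 3502, 4037 and 2783 in triptolide, a ratio of 1.09 (exact permutation p = 0.7). The most abundant was that of Ccdc176, now Bbof1, a basal body protein of motile cilia (chromosome 12, 84419974 to 84430333). It was listed at 0 in control 1, at 422 in control 2, and at 554, 354 and 252 in triptolide, so the groups overlapped and the controls differed more from each other than the triptolide libraries did. Its log2 fold change was 2.20 ± 1.18 (SE, limma adjusted p = 0.68), and -0.19 without control 1.

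Ccdc154 gave a single circle of 1368 bases (chromosome 17, 25167297 to 25168665). It stood at 175 and 198 SRPBM in the controls and at 296, 292 and 217 in triptolide. All triptolide libraries were higher, by 0.48 ± 0.32 on the log2 scale (SE, limma adjusted p = 0.68). The leading circle of Ccdc30 (chromosome 4, 119390901 to 119404264) stood at 193 and 182 in the controls and 258, 248 and 139 in triptolide, and that of Ccdc50 (chromosome 16, 27405647 to 27417365) at 193 and 124 against 95, 132 and 139. Both overlapped between the groups. The 18 circles of Ccdc171 summed to 364 and 484 in the controls and 396, 413 and 300 in triptolide, and the 25 of Ccdc178 to 355 and 268 against 132, 262 and 326, both overlapping.

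Of the 176 coiled-coil circles, 47 were listed in control libraries alone and 68 in triptolide libraries alone, and most of these were in a single library. With 2 control and 3 triptolide libraries these numbers cannot be compared directly, and the share over all circRNAs was not computed. Only 2 coiled-coil circles were listed in both controls and in no triptolide library. A Ccdc148 circle of 133388 bases (chromosome 2, 58875797 to 59009185) stood at 17 and 33 SRPBM in the controls, or 2 and 4 reads, and at 0 in all triptolide libraries. A Ccdc178 circle of 83154 bases on chromosome 18 stood at 17 and 41, or 2 and 5 reads, and at 0 in triptolide. For both the limma adjusted p was 0.68. Counts this low are near the smallest value listed, and 262 of all 5457 circRNAs tested had a p under 0.05 in that direction. Ccdc39 and Ccdc40 set the spacing of structures along the axoneme, and the 4 circles of Ccdc39 summed to at most 61 SRPBM in any library, whereas a Ccdc40 circle of 691 bases (chromosome 11, 119242427 to 119243118) stood at 87 and 49 in the controls and 66, 124 and 95 in triptolide. These genes, chosen after their values were seen, had overlapping groups. Ccdc151, which anchors outer dynein arms, gave 2 circles, each listed in a single control (26 and 24 SRPBM) and in no triptolide library.

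**Figure D4:**
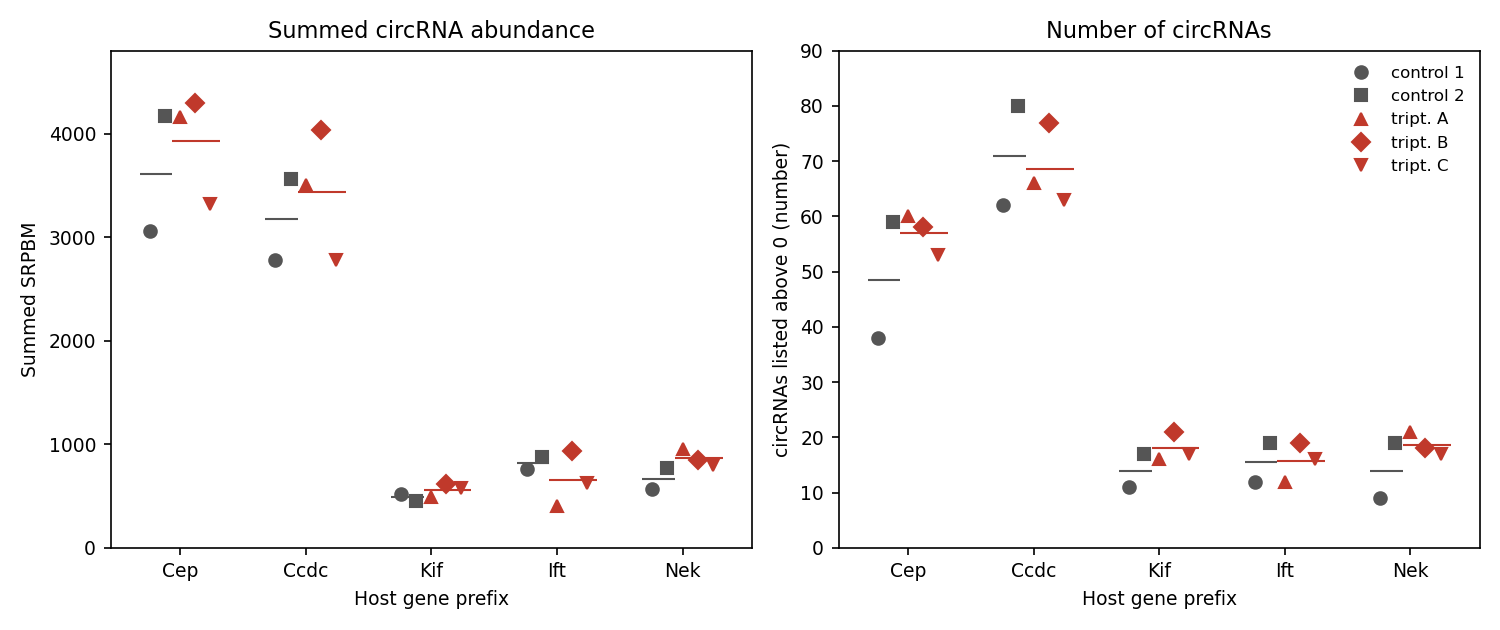
Summed SRPBM (left) and number of circRNAs above 0 (right) for each host prefix (x axis), 1 point per library with grey for control and red for triptolide, and short lines at group means. Only for Nek do the summed values of the groups not overlap, 567 and 772 in control against 803 to 955 in triptolide.

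Kinesin hosts gave few and rare circles. They summed to 523 and 455 SRPBM in the controls and 490, 618 and 575 in triptolide, a ratio of 1.15 (exact permutation p = 0.3). As a share of all circRNA signal they made up 0.150% and 0.127% in the controls and 0.157%, 0.159% and 0.188% in triptolide. Those shares did not overlap (exact permutation p = 0.1, the smallest the design allows). Just 2 Kif circles were above 0 in all libraries, and their summed ratio was 0.701. Kif16b, a motor that moves early endosomes, gave 9 circles. The leading one (chromosome 2, 142834077 to 142865413) varied more within than between groups, at 202 and 33 in the controls and 66, 17 and 121 in triptolide. Another Kif16b circle (chromosome 2, 142648428 to 142690701) was listed at 0 in each control but at 19, 17 and 17 in triptolide, which is 2 reads in each.

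Kif9, a kinesin of the sperm tail, gave 7 circles that summed to 35 and 97 SRPBM in the controls and 94, 175 and 17 in triptolide. Its leading circle (chromosome 9, 110483061 to 110514623) was at 0 and 33 against 47, 53 and 0, so the groups overlapped. For Kif6 a circle of 35953 bases (chromosome 17, 49686391 to 49722344) stood at 70 and 24 in the controls and 38, 44 and 60 in triptolide. A longer Kif6 circle from the same lower end (to 49758637) was listed at 0 in each control but at 28, 17 and 17 in triptolide, or 3, 2 and 2 reads (limma adjusted p = 0.68). Kif27 had 1 circle (chromosome 13, 58343866 to 58345829), at 0 and 66 against 28, 35 and 52. A circle of Kif1b, a motor of mitochondria and vesicles (chromosome 4, 149245338 to 149253751), stood at 26 and 16 in the controls and at 0 in triptolide. Kif3b, a subunit of the motor that drives outward transport, gave 1 circle, at 0 in both controls and at 0, 53 and 52 in triptolide and was named after its values were seen.

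Transport hosts were the one prefix with a lower mean in triptolide, though the groups overlapped. Ift circles summed to 760 and 879 SRPBM in the controls and 406, 931 and 629 in triptolide, a ratio of 0.80 (exact permutation p = 0.5), or 0.952 without triptolide A. Ift80, Ift81, Ift88 and Ift74 belong to the complex that carries cargo outward, and Ift140 and Ift122 to the complex of the return. The outward complex gave 30 of the 34 circles.

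Ift80 gave 12 circles with a sum of 376 and 287 SRPBM in the controls and 132, 263 and 250 in triptolide, where every triptolide library was lower. Its log2 fold change was -0.63 ± 0.38 (SE, limma adjusted p = 0.76 over hosts). The circle of 9167 bases (chromosome 3, 68985415 to 68994582) stood close together within each group, at 105 and 107 in the controls and 38, 35 and 43 in triptolide, or 12 and 13 against 4, 4 and 5 reads. That circle had a log2 fold change of -1.16 ± 0.45 (SE, limma adjusted p = 0.68), which ranged from -1.22 to -1.11 when each library was left out in turn. A longer Ift80 circle with the same upper end (68962180 to 68994582) stood at 158 and 49 against 0, 62 and 69.

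Ift81 gave 8 circles summing to 332 and 305 SRPBM in the controls and 170, 424 and 234 in triptolide, which overlapped. The circle of 20027 bases (chromosome 5, 122591080 to 122611107) stood at 140 and 116 in the controls and 19, 62 and 78 in triptolide, a share of 42.2% and 38.0% of the gene's circles against 11.2%, 14.6% and 33.3%. The circle of 4139 bases with the same upper end (122606968 to 122611107) stood at 52 and 91 against 66, 106 and 78. The long circle's log2 fold change was -1.18 ± 0.55 (SE, limma adjusted p = 0.68) and the short one's 0.20 ± 0.46. Shares were followed for 30 circles, those above 0 in every library from a gene with several such circles. Of these, 4 (13.3%) did not overlap between the groups, against 19.1% of the 748 such circles of all host genes. Lower in triptolide were the 20027-base circle and the second Cep112 circle described above. An Ift81 circle from the same lower end (to 122594688) was higher, at 21.1% and 13.4% against 33.5%, 25.0% and 22.2%. A Ccdc148 circle (chromosome 2, 58980370 to 58983007) was also higher, at 12.5% and 22.8% against 34.2%, 28.3% and 27.9%. These shares were not tested across all genes. An Ift88 circle (chromosome 14, 57437177 to 57450741) was at 35 and 16 in the controls and at 0 in triptolide.

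The kinases were the only prefix whose sums did not overlap, though the kinesin circles did not overlap as a share of all circRNA signal. Nek circles held 567 and 772 SRPBM in the controls and 955, 851 and 803 in triptolide, a ratio of 1.30 (exact permutation p = 0.1, the smallest the design allows). Restricted to the 6 circles above 0 in every library, the ratio was 0.945, and as a share of all circRNA signal the exact permutation p was 0.2. Without control 1 the ratio of the whole sum was 1.13. Nek1, which acts at cilia and in DNA repair, had 1 leading circle (chromosome 8, 61049784 to 61089799) at 0 in control 1, 116 in control 2 and 133, 115 and 95 in triptolide. The log2 fold change of that circle was 1.49 in all libraries and -0.03 without control 1. Its other main circle (61054520 to 61089799) stood at 123 and 91 against 76, 97 and 69, in overlap.

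Nek10 was steady. Its 21 circles summed to 349 and 344 SRPBM in the controls and 406, 386 and 381 in triptolide, which did not overlap but differed by 0.17 ± 0.27 on the log2 scale (SE, limma adjusted p = 0.96 over hosts). Single Nek10 circles varied more: one (chromosome 14, 14820778 to 14840604) stood at 105 and 58 against 95, 35 and 52, and one from the same lower end (to 14865735) at 70 and 58 against 47, 88 and 95. Nek11, a checkpoint kinase, gave 4 circles that were listed at 0 in both controls and summed to 47, 79 and 17 in triptolide. Its limma adjusted p was 0.76 over hosts, and it was named after its values were seen.

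**Figure D5:**
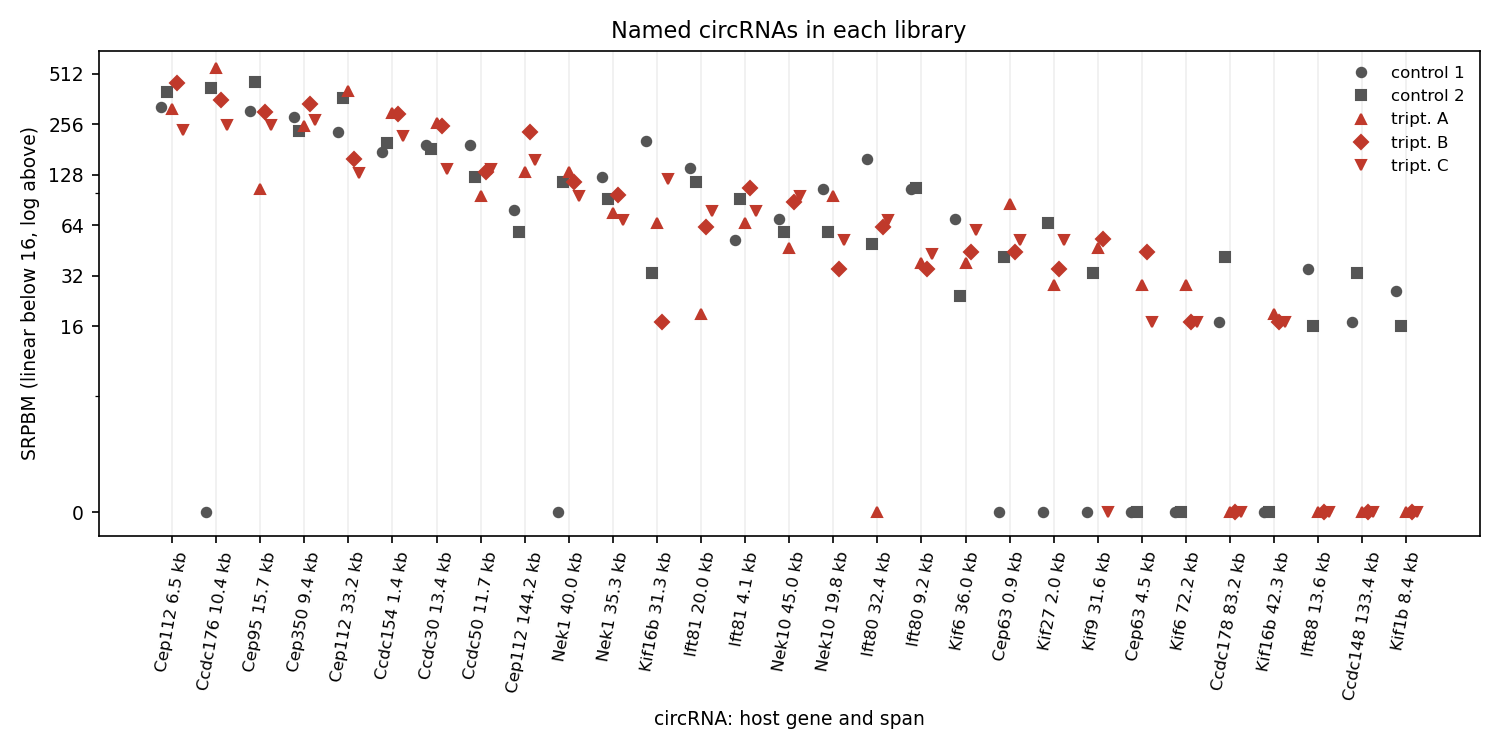
SRPBM of each named circRNA (x axis: host gene and span) in the 5 libraries, control in grey and triptolide in red. The y axis is linear below 16 and log above. The Ift80 circle of 9.2 kb shows both controls at 105 and 107 above triptolide at 35 to 43, and the leading circles of Ccdc176 and Nek1 show control 1 alone at 0.

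Summed per gene, which lowers the counting noise, no member host passed the test. Of 92 hosts, 68 were tested, 41 with a positive and 27 with a negative log2 fold change. The median was 0.10 against -0.07 over all 2335 hosts, or -0.06 against -0.14 without control 1. With limma 0 were called, as were 0% of all hosts, with 1 higher (Nek11) and 1 lower (Ccdc151) at an unadjusted p under 0.05, against a background of 2.7% and 3.6%, or 6.3% in all. The edgeR test on recovered reads called 0, with 1 at an unadjusted p under 0.05 against a background of 3.85%. Triptolide lay wholly above control for 6 hosts (Nek4, Nek10, Nek11, Ccdc91, Ccdc154 and Kif15) and wholly below for 3 (Cep95, Ift80 and Ccdc151), which is 8.82% and 4.41% of those tested against a background of 7.15% and 11.6%. A fit without control 2 rests on control 1 alone, where Ccdc176 and Cep63 each had a circle listed at 0 that was well read elsewhere.

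The number of member circles seen followed the same line. It was 132 and 194 in the controls and 175, 193 and 166 in triptolide (exact permutation p = 0.7). Thinned to the reads of the smallest library, the numbers expected were 121 and 164 against 175, 163 and 159. Control 1 was lowest in both, and the ratio of triptolide to control turned from 1.09 to 0.918 without it.

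Among genes of the same structures under other names, no circle passed the test either. A list of 91 further genes of centrioles, transport, kinesins, the transition zone and ciliary kinases held 46 with circles and 174 circRNAs. Of 91 tested, 42 were positive and 49 negative with a median of -0.06, and limma called 0 against a background of 0%, with 3 higher and 4 lower at an unadjusted p under 0.05, where the background is 1.8% and 4.8%. The medians of the lists went both ways. They were 0.06 over 53 circles of centrioles and centrosomes and 0.95 over 7 of kinesins. For the transition zone the median was -0.09 over 7 circles, and for the kinases -0.40 over 8. In the transport genes without the Ift prefix it was -0.44 over 16 circles, against 0.09 for the Ift circles. Nearly all of that signal was Dync2h1, the heavy chain of the return motor, whose 22 circles summed to 1409 and 1078 SRPBM in the controls and 854, 996 and 805 in triptolide. Its log2 fold change over the summed circles was -0.48 (limma adjusted p = 0.76), and every triptolide library was below both controls.

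Long non-coding RNA loci at the member genes gave a readout that the naming rule did not use, though the rule was set with earlier results known. The table of assembled lncRNA transcripts held 21 loci at 18 member hosts, each with an antisense transcript, and 14 had enough counts to be tested with edgeR. None passed an adjusted p of 0.05, against 7.27% of all 6888 loci (5.01% higher and 2.26% lower), and DESeq2 called none either. At an unadjusted p under 0.05 there was 1, which was lower, against a background of 21.7%, or 8.81% lower. Whether counting used the strand is not stated in the sources, and an antisense locus may therefore hold reads of its partner gene.

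The 1 locus was antisense to Ccdc178 on chromosome 18, with 277 ± 9.4 CPM (counts scaled to the library total) (SD, n = 2) in control and 205 ± 24 (SD, n = 3) in triptolide. Its edgeR log2 fold change was -0.44 ± 0.19 (SE, adjusted p = 0.17). At Cep126 (chromosome 9, 8133698 to 8152449) the values were 342 ± 21 in control and 431 ± 46 in triptolide (edgeR adjusted p = 0.30), and at Cep128 (chromosome 12, 91384118 to 91385899) 29.3 ± 3.4 and 44.6 ± 13.0 (adjusted p = 0.31). Loci at Ccdc14 (chromosome 16) and Cep120 (chromosome 18) had edgeR log2 fold changes of 0.45 ± 0.28 and 0.30 ± 0.25 (SE). The longer of the loci at Cep85l (chromosome 10, 53348530 to 53428306) had one of -0.31 ± 0.21 (SE). The other Cep85l locus had more counts, at 302 ± 42 CPM in control and 325 ± 51 in triptolide. Its edgeR log2 fold change was 0.10 ± 0.20 (SE). Those at Ccdc15 (chromosome 9) and Ccdc57 (chromosome 11, 120932870 to 120933782) were low, at 11.8 ± 0.87 and 11.0 ± 8.2 CPM in control against 4.55 ± 2.6 and 5.46 ± 4.4 in triptolide.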

How the data were processed

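Testis RNA of 2 control and 3 triptolide libraries was read from the authors' tables. The authors deposited circRNA values as a score which, from its name, is SRPBM rounded to whole numbers. After division by the worth of 1 read, 97.6% to 98.5% of the entries above 0 lay less than 0.1 from a whole number of reads. The authors deposited lncRNA transcripts in expected counts, per the file headers. These were summed per locus and rounded, and its 5 FPKM columns were not used. Among its columns, 2 of triptolide share a header, and their letters do not match those of circRNAs. Per the submitters' processing notes, HISAT2 2.0.1, HTSeq 0.6.1, DESeq and bedtools 2.17.0 were used, with a human build named. The coordinates are mouse and are printed as deposited, and the build of the circRNA and lncRNA tables is not given otherwise in the sources used here. The mRNA table pairs transcripts with no gene names and was not used.

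The main circRNA test was limma 3.58.1 (trend, R 4.3.3) on log2(SRPBM + 16), 16 being the lowest nonzero value, for circRNAs and host sums listed in 2 libraries or more. The scale understates changes of low circRNAs. edgeR 4.0.16 (quasi-likelihood F test, TMM) was run on reads recovered from the circRNA values and, with filterByExpr, as the main test on lncRNA loci, with DESeq2 1.42.0 beside it. Benjamini-Hochberg adjustment ran over all features tested, with a threshold of 0.05. Library sums were tested by exact permutation (two-sided, 10 assignments). The limma test on circRNAs and the edgeR test on loci were tested on simulated data with known changes. There the circRNA test gave the right direction at the median but passed none of the changed circRNAs, so its lack of calls does not show a lack of change. Values were also recomputed under other pseudocounts, filters and scalings and with each library left out.

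The members and lists were chosen with earlier results of these data known. Named circles are the 4 most abundant of each prefix and the 5 smallest p-values in each direction among those without overlap, with the 2 hosts of each prefix that gave the most circles and 8 lncRNA loci by smallest p. Promoter windows came from RefSeq (GRCm38.p6) and were searched on both strands for 17 motifs. Of these, 9 were overlapping forms of the RFX X-box, from the half-site GTTGCC alone to both half-sites with fixed or free bases between them. The other 8 were the CREM and CREB palindrome TGACGTCA with its core, the E2F forms GGCGGGAA and TTTGGCGC, the CCAAT box, the E-box CACGTG, and the sites of NRF1 and ZNF143.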

Additional observations from a re-analysis of the deposited data

How the results depend on the processing

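The call of no member circRNA held under the other pseudocounts, equal circRNA totals, the edgeR test and the filter to circles above 0 in all libraries. With no filter 1 was called (Ccdc176), and with each library left out 0 to 5 were, the 5 without control 2. Over all circRNAs the fit with no filter called 36 of 11957 (0.301%). The Ccdc176 circle was listed at 0 in control 1, and its log2 fold change was -0.19 without control 1. Host sums and lncRNA loci gave 0 calls with each triptolide library left out, as did member circRNAs. Fits without a control leave 1 library in that group. The circRNA calls without control 2 therefore have control 1 as their only control. Calls of host sums and loci from such fits are not counted here. Restricted to circles above 0 in every library, ratios of summed SRPBM turned to 0.981 for all members, 0.993 for Cep, 0.701 for Kif (2 circles) and 0.945 for Nek. With each library left out, ratios ranged from 0.961 to 1.23 for all members, 0.942 to 1.29 for Cep, 0.966 to 1.24 for Ccdc, 1.07 to 1.23 for Kif, 0.631 to 0.952 for Ift and 1.13 to 1.53 for Nek. The member share ranged from 1.03 to 1.28 and the number above 0 from 0.918 to 1.35, the lowest without control 1.

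Log2 fold changes of named circles crossed 0 with a library left out for Ccdc176 (-0.19 to 4.58), Nek1 (-0.03 to 3.02), Kif16b (-1.60 to 0.55), Kif27 (-0.62 to 1.74), Kif9 (-0.25 to 1.36), Kif6 (-0.46 to 0.65), Ccdc30 (-0.01 to 0.40), the 6470-base Cep112 circle (-0.38 to 0.07) and the 4139-base Ift81 circle (-0.13 to 0.53). Sums crossed 0 for Ccdc171 (-0.39 to 0.01), Cep128 (-0.03 to 0.24), Kif16b (-1.10 to 0.38), Kif9 (-0.35 to 0.93) and Nek1 (-0.09 to 0.79), as did the lncRNA locus at Ccdc57 (-1.61 to 0.12). Beyond the role of control 1 given in the report, the cause was not tested. No paired analysis was possible because no triptolide column of the circRNA table carries a replicate number of its own, and the 1 numbered triptolide column of the lncRNA table, replicate 3, shares its number with no control. Most members had 2 to 10 reads where listed, and leaving out a control leaves 1 library that is assumed to vary like the others.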

Other observations

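Among the centrosomal genes without one of the prefixes, Rttn, which encodes a centriole protein needed for centriole elongation, had the smallest limma p of the listed genes' sums. Its 6 circles summed to 17 and 32 SRPBM in the controls and to 133, 122 and 137 in triptolide, so every triptolide library lay above both controls. The log2 fold change was 1.88 (limma adjusted p = 0.76 over hosts), and Rttn was named after its values were seen. Sclt1, a protein of the centriole's distal appendages, gave 12 circles with 551 and 684 SRPBM in the controls and 713, 891 and 676 in triptolide, in overlap. Alms1, the centrosomal protein of Alström syndrome, summed to 641 and 579 against 630, 423 and 755. Kifap3, which links the outward motor to its cargo, gave 9 circles with 191 and 296 in the controls and 400, 335 and 311 in triptolide, all higher (limma adjusted p = 0.76). Ahi1, a transition zone protein, stood at 148 and 147 against 57, 96 and 102, all lower (limma adjusted p = 0.76).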
